A study of Rattus norvegicus and Mus musculus with 25 samples.

Results

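The genes described here are the 3 D-type cyclins Ccnd1, Ccnd2 and Ccnd3, the 2 E-type cyclins Ccne1 and Ccne2, and the kinases Cdk4, Cdk6 and Cdk2 that these cyclins bind. They were chosen by symbol, and all 8 were found in each deposited table, among 28905 rat rows and 54083 mouse rows with a unique name. The study asks, by its title, how Reelin and Thrombospondin1 act on the proliferation of heart muscle cells through Vldlr, the very low density lipoprotein receptor. RNA from 25 libraries was sequenced, 16 from rat in 8 groups and 9 from mouse in 3 groups.

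The rat cells were neonatal ventricular cardiomyocytes from SD rats 1 day old, digested from ventricles and freed of faster-attaching cells by a plating step. Each rat group had 2 libraries. A small interfering RNA against Vldlr (si-Vldlr) was set against its control siRNA (si-Control_v), and one against Thbs1 (si-Thbs1) against a separate control siRNA (si-Control_t), all at 50 nM for 60 h. Reelin, a secreted ligand of Vldlr, was set against PBS, its vehicle, for 48 h. Vldlr overexpression (Vldlr OE) was delivered for 72 h by an AAV9 virus in which the cTnT promoter, active in cardiomyocytes, drives Vldlr. Its comparator is labelled Control; the treatment protocol names a GFP virus with the CMV promoter. The 2 columns used as Control carry another name and were given to that group by elimination. The mouse cells were cardiomyocytes from C57BL/6 animals 1 day old, with 3 libraries for each genotype. Vldlr f/f animals carry 2 floxed copies of Vldlr and no Cre, Myh6-Cre;Vldlr f/f animals carry the same alleles with Cre under the cardiomyocyte promoter of Myh6, and Myh6-Cre;Vldlr f/+ animals carry Cre with a single floxed copy. No group carries Cre without a floxed allele. Against Vldlr f/f, an effect of Cre itself therefore cannot be told apart from loss of Vldlr from the floxed copies, for either Cre genotype. Whether replicates are separate cultures or animals is not stated in the labels, so a p-value here reflects the spread among the sequenced libraries alone, and that spread may be technical.

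D-type cyclins accumulate when mitogens reach a resting cell, and they activate Cdk4 and Cdk6. These kinases begin to phosphorylate the retinoblastoma protein, which otherwise holds E2F transcription factors inactive. E2F factors then induce Ccne1 and Ccne2, whose proteins activate Cdk2 and take the cell from G1 into S phase. Cardiomyocytes divide in the fetus and for a short time after birth, and then leave the cell cycle, with falling levels of many of these genes.

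Upstream sequences of 4 of the 8 genes were at hand for the rat, from RefSeq on GRCr8, which is not the build rn6 named in the submitters' processing notes. The 3 windows of 250 bases before the gene start printed here belong to 2 genes whose levels were higher in both si-Thbs1 libraries than in both of their controls (Ccne1 and Cdk2), and to a kinase whose groups overlapped there (Cdk4). They lie at chr1:99927910-99928159 on the minus strand (Ccne1), chr7:1721879-1722128 on the minus strand (Cdk2) and chr7:64771203-64771452 on the plus strand (Cdk4). Capitals mark matches on either strand to the GC box GGGCGG, the CCAAT box CCAAT and the E-box CACGTG.
Ccne1: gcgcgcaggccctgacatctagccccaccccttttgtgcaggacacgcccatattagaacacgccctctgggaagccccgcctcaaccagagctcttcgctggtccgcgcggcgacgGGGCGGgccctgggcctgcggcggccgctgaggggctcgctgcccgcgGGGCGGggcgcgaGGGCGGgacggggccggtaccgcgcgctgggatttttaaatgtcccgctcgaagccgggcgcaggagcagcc
Cdk2: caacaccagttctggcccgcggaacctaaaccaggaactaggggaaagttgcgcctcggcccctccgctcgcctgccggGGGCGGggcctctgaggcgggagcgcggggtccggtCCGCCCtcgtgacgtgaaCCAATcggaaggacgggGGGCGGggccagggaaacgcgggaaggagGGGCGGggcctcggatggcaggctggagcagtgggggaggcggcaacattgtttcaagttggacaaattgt
Cdk4: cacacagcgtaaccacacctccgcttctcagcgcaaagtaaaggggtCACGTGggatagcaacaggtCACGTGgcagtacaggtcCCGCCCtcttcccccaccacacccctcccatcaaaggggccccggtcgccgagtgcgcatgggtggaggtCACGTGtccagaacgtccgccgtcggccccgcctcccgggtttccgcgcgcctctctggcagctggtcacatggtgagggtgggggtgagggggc
The Ccne1 window held 3 GC boxes and the Cdk2 window held 4, with a CCAAT box 117 bases before the start in Cdk2. The Cdk4 window held 3 E-boxes, whose first bases lie 203, 183 and 95 bases before the start, and 1 GC box. Of 33469 rat promoter windows of the same length, 30.5% held a GC box, 34.0% a CCAAT box and 5.59% this E-box. The E2F words TTTCGCGC, TTTGGCGC, TTTCCCGC and TTTGCCGC, found in 1.73% of windows, were in none of these windows, nor was the cyclic AMP element TGACGTCA, found in 1.59%. The remaining window, of Ccnd3, held a CCAAT box and 2 GC boxes. No marked matches overlapped one another, and a match describes letters in the window only.

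Values are given in CPM, counts that the authors scaled so that each library sums to 1000000. Differences are log2 fold changes of CPM + 1, which understate the change of low genes, with their standard error (SE), and come from limma fits over all genes tested. Across the 7 comparisons and 8 genes, none of the 56 tests passed an adjusted p of 0.05, and the smallest adjusted p was 0.411. Without adjustment, 6 of the 56 had a p under 0.05, and in 13 the libraries of both groups did not overlap. In the cultured rat cells the values nearest to a difference were those of Ccne1, Ccne2 and Cdk2, higher with si-Thbs1, of Cdk6, lower with si-Thbs1, and of Cdk2, lower with si-Vldlr and with Vldlr OE.

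The targeted genes were examined first. Vldlr stood at 177 ± 8.38 CPM (SD, n = 2) with si-Vldlr and at 255 ± 3.27 (SD, n = 2) in its control, a log2 difference of -0.52 (SE 0.18, limma adjusted p = 0.348). In the Vldlr OE libraries it was 773 ± 164 against 478 ± 140 (SD, n = 2 each; log2 difference 0.71), and one Control library at 577 was close to the lower OE library at 656. Thbs1 was 645 ± 141 CPM with si-Thbs1 and 918 ± 36.3 in its control (SD, n = 2 each), a log2 difference of -0.52. In the mouse, Vldlr was 156 ± 43.7 CPM in Vldlr f/f, 104 ± 7.32 in Myh6-Cre;Vldlr f/+ and 78.4 ± 6.90 in Myh6-Cre;Vldlr f/f (SD, n = 3 each). All 3 Myh6-Cre;Vldlr f/f libraries lay below all 3 Vldlr f/f libraries, with a log2 difference of -0.94 (SE 0.23, limma adjusted p = 0.997). Each targeted gene differed in the labelled direction and none passed the adjusted threshold, and in no manipulated group did the level approach 0.

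Among the D-type cyclins of the rat cells, Ccnd1, the cyclin most often induced by mitogens, had the widest range. With si-Vldlr it was at 195 and 153 CPM, against 280.3 and 179 in si-Control_v. One control library was above both treated ones and the other lay between them, so the groups overlapped, with a log2 difference of -0.38 (SE 0.19, limma unadjusted p = 0.0796, adjusted p = 0.478). In the Vldlr OE libraries it was at 418 and 357 CPM against 319 and 297 in Control. Both OE libraries were higher than both controls (log2 difference 0.33, SE 0.19, adjusted p = 0.958). In the Reelin libraries Ccnd1 was at 229.7 and 211, inside the PBS values of 208 and 243. With si-Thbs1 it was at 188 and 242 against 156 and 195, and the groups overlapped by the lower treated library.

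Ccnd2, a D-type cyclin studied in cardiomyocyte proliferation, was at 85.0 and 87.0 CPM with si-Vldlr and at 109 and 101 in si-Control_v. Both treated libraries were below both controls (log2 difference -0.28, SE 0.14, limma unadjusted p = 0.0709, adjusted p = 0.464). In the Reelin libraries it was at 134 and 112 against 105 and 109 in PBS, with no overlap and a log2 difference of 0.20 (SE 0.14). The Vldlr OE libraries, at 105 and 147 CPM, lay on either side of the Control values of 127 and 133. The si-Thbs1 libraries, at 121 and 103, overlapped their controls at 120.1 and 93.8.

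Ccnd3 was the steadiest of the 3 in the rat cells. It was at 222 and 232 CPM with si-Vldlr against 228 and 239, and at 233 in both Reelin libraries against 219.8 and 233 in PBS. Vldlr OE gave 314 and 275 against 279.7 and 289.9 in Control, again overlapping. With si-Thbs1 both libraries, at 218 and 198, were below their controls at 232 and 221 (log2 difference -0.13, SE 0.13, adjusted p = 1). The 95% interval of its difference ran from -0.22 to 0.15 for si-Vldlr, and from -0.14 to 0.23 for Reelin and for Vldlr OE alike.

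Of the kinases that D-type cyclins activate, Cdk4 varied least between rat groups. Its means were 122 ± 0.125 CPM with si-Vldlr and 116 ± 1.52 in the control, 124 ± 10.0 with Reelin and 127 ± 4.50 in PBS (SD, n = 2 each). Vldlr OE stood at 112 ± 16.6 against 110 ± 3.22 in Control, and si-Thbs1 at 112 ± 21.7 against 104 ± 7.76 (SD, n = 2 each). The si-Vldlr pair did not overlap, with both treated libraries at 122 CPM, above 115 and 117, but the difference was 0.08 on the log2 scale (SE 0.10). Cdk6, which forms the same kind of complex, was at 8.50 and 10.2 CPM with si-Thbs1 and at 12.6 and 13.7 in the control. Both treated libraries were lower (log2 difference -0.45, SE 0.17, limma unadjusted p = 0.0432, adjusted p = 0.876). Reelin libraries, at 15.5 and 14.2 CPM, were above PBS at 13.7 and 11.9 (log2 difference 0.20, SE 0.19). The si-Vldlr libraries (14.0 and 11.3 CPM) and the Vldlr OE libraries (11.8 and 17.3) overlapped their controls (18.3 and 13.3; 14.5 and 15.0).

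The E-type cyclins were low in the rat cells and stood highest, relative to controls, with si-Thbs1. Ccne1, whose upstream window held 3 GC boxes and none of the E2F words, was at 10.6 and 10.5 CPM there and at 7.40 and 6.49 in si-Control_t. Both treated libraries were higher than both controls, by 0.54 on the log2 scale (SE 0.17, 95% interval 0.12 to 0.96, limma unadjusted p = 0.0201, adjusted p = 0.670). Ccne2 was at 14.1 and 11.0 CPM against 9.44 and 6.68, again without overlap (log2 difference 0.59, SE 0.23, unadjusted p = 0.0459, adjusted p = 0.893). In the Vldlr OE libraries Ccne1 was at 7.60 and 6.26 CPM, just below the Control values of 7.62 and 9.50 (log2 difference -0.27, SE 0.18). Ccne2 was at 8.29 and 5.54 there against 6.49 and 10.8, and the groups overlapped. With si-Vldlr, Ccne1 was at 14.6 and 13.4 against 14.1 and 10.7, and Ccne2 at 13.3 and 11.6 against 15.1 and 12.7. Neither separated from its control, nor did either with Reelin, where Ccne1 was at 9.46 and 10.6 against 9.93 and 13.2, and Ccne2 at 11.5 in both libraries against 11.1 and 11.6.

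Cdk2, the partner of cyclin E, had an unadjusted p under 0.05 in 3 of the 4 rat comparisons, and in none of the 4 after adjustment. With si-Vldlr it was at 25.9 and 29.3 CPM against 33.9 and 33.4 in the control, a log2 difference of -0.28 (SE 0.12, limma unadjusted p = 0.0385, adjusted p = 0.411). In the Vldlr OE libraries it was at 18.9 and 18.0 against 20.4 and 25.5, a log2 difference of -0.30 (SE 0.12, unadjusted p = 0.031, adjusted p = 0.958). With si-Thbs1 it was at 35.2 and 30.2 CPM against 24.8 and 25.2, a log2 difference of 0.37 (SE 0.15, unadjusted p = 0.0494, adjusted p = 0.898). In each of these the 2 treated libraries lay on 1 side of both controls. In the Reelin libraries it was at 28.7 and 26.2, overlapping PBS at 26.9 and 25.0. Lower Vldlr and higher Vldlr both went with a lower Cdk2 mean, each against its own control.

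**Figure D1:**
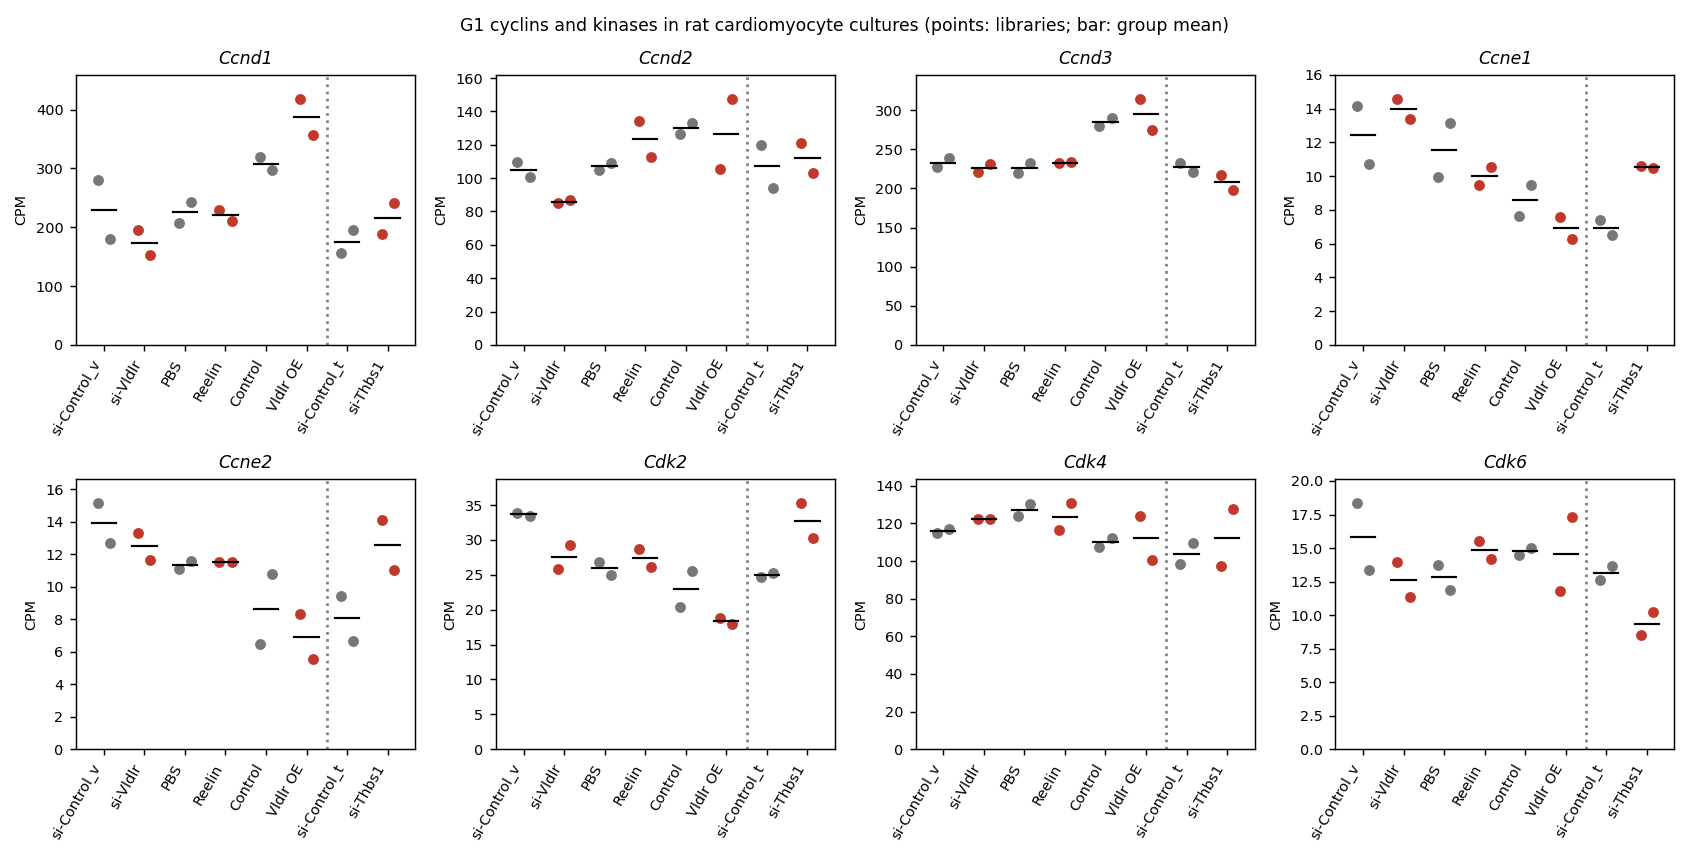
CPM of the 8 genes in the 16 rat libraries; points are libraries, black bars are means of 2, grey is each control and red its treatment, and the dotted line separates the 2 tables, which were scaled separately. Ccne1, Ccne2 and Cdk2 lie higher in both si-Thbs1 libraries than in both si-Control_t libraries, and Ccnd1 is highest in the Vldlr OE libraries.

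These counts were read against those over all genes tested. For si-Vldlr, 0.0289% of 13860 genes passed the adjusted threshold (4 genes) and 11.8% had an unadjusted p under 0.05, with 1 of the 8 genes among them. In that comparison 48.5% of all genes had groups that did not overlap, against 3 of the 8 (Ccnd2, Cdk2 and Cdk4), a share near the background. For Reelin the adjusted threshold was passed by 0.0144% of genes (2 genes), an unadjusted p under 0.05 was reached by 1.36%, with none of the 8, and groups did not overlap for 32.8%, with 2 of the 8 (Ccnd2 and Cdk6). For Vldlr OE these shares were 0.00722% (1 gene), 4.52% with 1 of the 8, and 25% with 3 of the 8 (Ccnd1, Ccne1 and Cdk2). For si-Thbs1, tested on 13416 genes, they were 0.0447% (6 genes), 5.52% with 4 of the 8, and 29.3% with 5 of the 8 (Ccnd3, Ccne1, Ccne2, Cdk2 and Cdk6). In each rat comparison 0 of the 8 passed after adjustment. Without it the 8 genes gave 4 for si-Thbs1 and 0 or 1 elsewhere, and no test of the difference between these counts was made. The median log2 difference of the 8 genes was -0.21 with si-Vldlr (-0.02 over all genes), 0.03 with Reelin (0.02), -0.05 with Vldlr OE (-0.03) and 0.19 with si-Thbs1 (0.03).

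**Figure D2:**
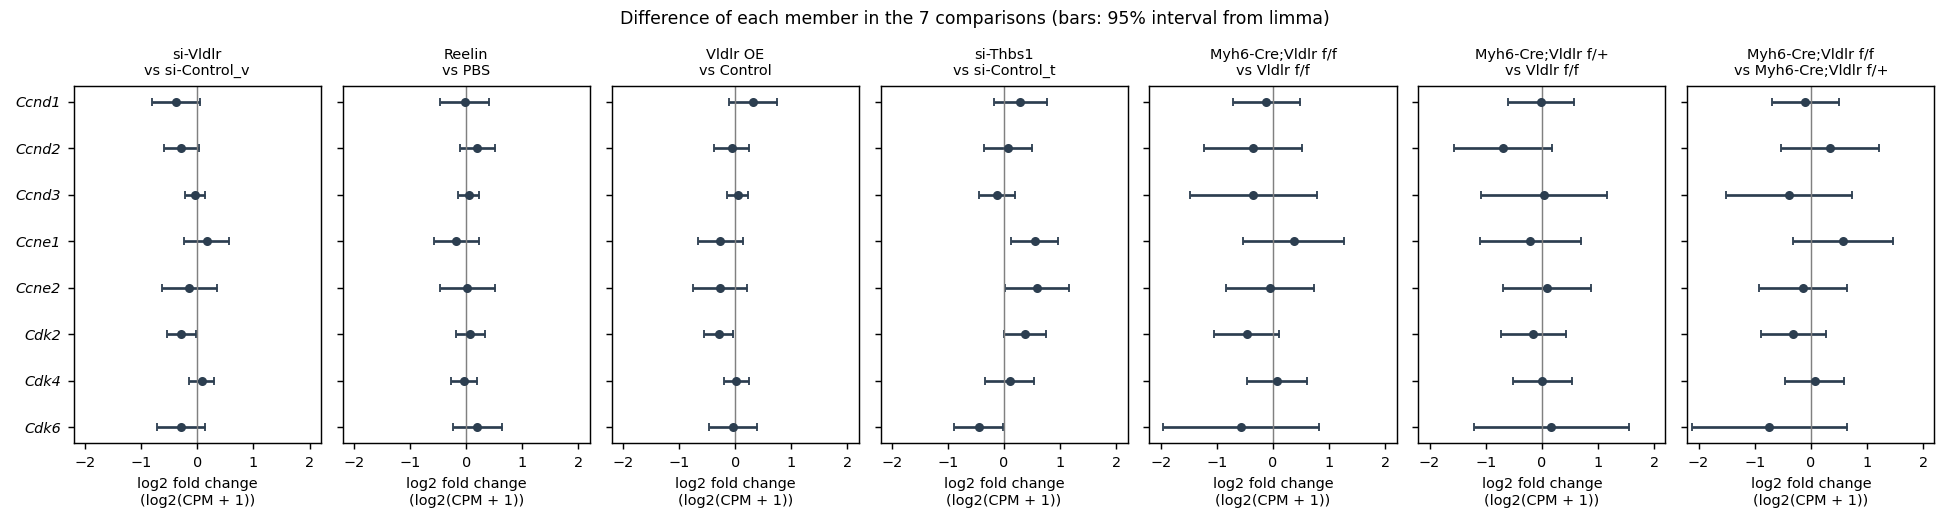
Log2 fold change of CPM + 1 for the 8 genes (rows) in the 7 comparisons (panels), with 95% intervals from limma. Rat intervals exclude 0 for Cdk2 with si-Vldlr and Vldlr OE and for Ccne1, Ccne2, Cdk2 and Cdk6 with si-Thbs1 before adjustment, and every mouse interval includes 0.

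The 3 control groups of the 12-library rat table differed among themselves. Ccnd1 averaged 230 ± 71.4 CPM in si-Control_v and 225 ± 25.3 in PBS, and 308 ± 15.3 in Control (SD, n = 2 each). Ordered by mean, it ran si-Vldlr, Reelin, PBS, si-Control_v, Control and Vldlr OE, and only the middle 3 overlapped their neighbours. Ccnd3 likewise was higher in the 4 libraries of Control and Vldlr OE, from 275 to 314 CPM, than in the other 8, which ran from 219.8 to 239. For the E-type cyclins and Cdk2, the Control and Vldlr OE means were the lowest of the 6. Ccne2 averaged 6.92 ± 1.94 CPM in Vldlr OE and 8.64 ± 3.04 in Control, and was highest in si-Control_v (13.9 ± 1.71; SD, n = 2 each). Cdk2 ran from 18.4 ± 0.644 in Vldlr OE to 33.7 ± 0.327 in si-Control_v (SD, n = 2 each). Those experiments had different lengths, 72 h against 48 h and 60 h, and different agents, so time, agent and any batch cannot be told apart across them.

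The genes around this machinery were taken from fixed lists. In the si-Thbs1 comparison all 19 S phase genes (replication and nucleotide synthesis factors) had higher means, with a median log2 difference of 0.64, no overlap in 19 of 19 and an unadjusted p under 0.05 in 17, but none passed after adjustment (smallest adjusted p = 0.471). Leaving out each of the 4 libraries in turn left all 19 higher, with medians from 0.52 to 0.77. The 7 tested members of a list of S and M phase cyclins, Cdk1 and Cdc25 phosphatases all had higher means too, with a median of 0.86 (0.61 to 1.11 on leaving out 1 library). Ccnb1, the mitotic cyclin B1, was at 48.0 ± 6.71 CPM against 23.5 ± 6.03, and Uhrf1, which maintains DNA methylation at replication, at 33.7 ± 0.0108 against 18.2 ± 3.57 (SD, n = 2 each). Over all genes the median was 0.03, 58.4% were higher, 29.3% did not overlap and 5.52% had an unadjusted p under 0.05. The genes of a list were measured in the same 4 libraries, so their counts are not separate results. Of the Rb family and E2F factors 9 of 12 were higher, and the atypical repressors E2f7 and E2f8 stood at 2.94 ± 0.0422 against 1.33 ± 0.262 and 7.28 ± 1.36 against 3.92 ± 1.41 CPM (SD, n = 2 each). Skp2, a ubiquitin ligase subunit that targets the inhibitor p27, was at 7.40 ± 0.00773 against 4.36 ± 0.279 (SD, n = 2 each).

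The inhibitors of these kinases had values on both sides of their controls with si-Thbs1. Cdkn2c, which blocks Cdk4 and Cdk6, was at 18.9 ± 0.475 CPM against 11.6 ± 0.696, and Cdkn1c, which also restrains cyclin E with Cdk2, was at 32.3 ± 8.19 against 54.6 ± 9.74 (SD, n = 2 each). Their limma adjusted p-values were 0.471 and 0.653, and 5 of the 6 inhibitors tested had lower means, with a median log2 difference of -0.17. Without si-Thbs1 library 1 this was 3 of 6 with a median of -0.0013, and without si-Thbs1 library 2 or si-Control_t library 1 the medians were -0.38 and -0.30. Among non-myocyte markers, macrophage genes summed to 125 to 152 CPM with si-Thbs1 against 191 to 200 in the control (6 of 6 genes found), and epicardial genes to 82.5 to 83.1 against 99.6 to 105 (5 of 5). Within those lists C1qa, C1qb, Upk3b and Msln overlapped their controls, and over all genes 29.3% did not overlap. Fibroblast genes overlapped, with 28089 to 34572 CPM against 33017 to 38391 (8 of 8), and so did cardiomyocyte genes, with 18128 to 24237 against 19135 to 21891 (7 of 8 found). Smooth muscle and pericyte genes (1162 to 2453 against 1105 to 1606 CPM) and endothelial genes (50.8 to 53.5 against 45.8 to 68.8) overlapped as well. The part of these differences in the results was not tested. In bulk samples such as these, fewer cells of a type and less RNA per cell cannot be told apart.

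With si-Vldlr, all 19 S phase genes had lower means, with a median log2 difference of -0.20, and groups did not overlap for 15 of them. Over all genes 46.0% were higher and 48.5% did not overlap. None of the 19 had an unadjusted p under 0.05, and without si-Control_v library 1 the median was -0.14 with 2 of 19 higher. The means were lower for all 19 with Vldlr OE as well, with a median of -0.32 and an unadjusted p under 0.05 in 3. Over all genes 42.7% were higher and 4.52% had an unadjusted p under 0.05. The count of 19 lower means rested on the Control library in column 2: without it the median was 0.0029 and 10 of 19 were higher. Without Vldlr OE library 2 the median was -0.16 with 4 of 19 higher, and without Control column 1 it was -0.66. Cdk2 and Ccne2 shared that library's high values, at 25.5 and 10.8 CPM against 20.4 and 6.49 in the other Control library, and the S phase genes summed to 696 CPM there and to 447 in the other. With Reelin, 8 of 19 were higher and the median was -0.04.

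Single inhibitors were among the larger values with si-Vldlr and with Vldlr OE, but the list went both ways. With si-Vldlr 3 of 6 had higher means, 2 of them without overlap, and 3 had lower means, all without overlap (median -0.09). Over all genes 48.5% did not overlap. The 3 lower were Cdkn1a (104 against 119 CPM), Cdkn1b (60.3 against 68.5) and Cdkn2c (12.8 against 16.4). With Vldlr OE 4 of 6 were higher (median 0.30). Without Vldlr OE library 1 the median was 0.017 with 3 of 6 higher, and without Vldlr OE library 2 it was 0.56 with 5 of 6 higher. Cdkn2b, an inhibitor of Cdk4 and Cdk6, was at 83.3 ± 8.14 CPM with si-Vldlr against 28.2 ± 13.1 (SD, n = 2 each), a log2 difference of 1.60 (SE 0.47, limma unadjusted p = 0.00642, adjusted p = 0.293). With Vldlr OE it was at 84.3 ± 9.22 against 47.1 ± 24.8 (SD, n = 2 each), without overlap. Cdkn1a, the p53-responsive inhibitor p21, was at 425 ± 21.5 CPM with Vldlr OE against 298 ± 55.6 (SD, n = 2 each; log2 difference 0.53, SE 0.12, adjusted p = 0.958). Rb1, the retinoblastoma gene, was at 15.0 ± 0.622 with si-Vldlr against 19.7 ± 0.0674, and its relative Rbl1 at 5.72 ± 0.343 with Vldlr OE against 8.14 ± 1.13 (SD, n = 2 each). Rbl1 was at 12.3 ± 0.538 with Reelin against 9.15 ± 0.955 in PBS (SD, n = 2 each; unadjusted p = 0.0286, adjusted p = 1). Ambra1, an adaptor for cyclin D breakdown, was at 34.3 ± 0.842 CPM with si-Vldlr against 40.8 ± 3.59 (SD, n = 2 each), and Mycn, a growth-linked transcription factor, at 14.5 ± 1.05 against 10.7 ± 0.621 (SD, n = 2 each). Of the inhibitors, Rb and E2F factors, turnover genes and mitogen outputs, none passed the adjusted threshold in any comparison.

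**Figure D3:**
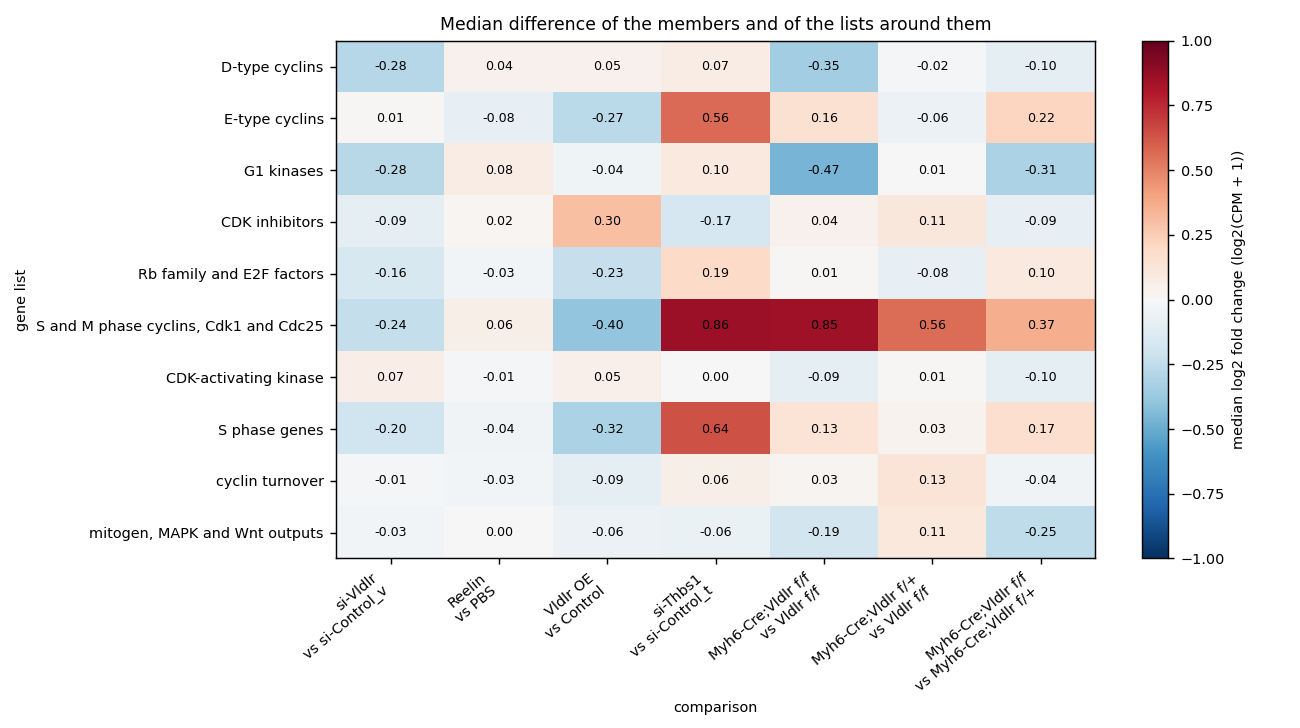
Median log2 fold change of CPM + 1 of each gene list (rows) in each comparison (columns), printed in the cells and coloured from -1 (blue) to 1 (red). The S phase genes reach 0.64 and the list of S and M phase cyclins, Cdk1 and Cdc25 phosphatases 0.86 with si-Thbs1, while the D-type cyclins stand at 0.07 there.

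Across the 12 rat libraries fitted together, the genes whose CPM followed each member most closely were found among 10238 genes whose mean was 5 CPM or more. For Ccne2 they were Mcm5, Mcm3 and Dscc1, with Pearson's r of 0.98, 0.97 and 0.97. Mcm5 and Mcm3 belong to the replicative helicase, and Dscc1 to a sister chromatid cohesion complex. For Cdk2 they were Dffa, Pole and Chaf1b (r = 0.98, 0.97 and 0.97), of which Pole is a DNA polymerase subunit and Chaf1b a chromatin assembly factor. Ccnd1 was followed most closely by Kazald1 (r = 0.99), Ccnd2 by Phf24 (r = 0.95), Ccnd3 by Scp2 (r = 0.97), Ccne1 by Ssbp2 (r = 0.96), Cdk4 by Ppial4d (r = 0.90) and Cdk6 by Mon2 (r = 0.88). In the 9 mouse libraries the genes closest to Cdk2 were others, Prr12, Nckap5l and Ctsa (r = 0.97, 0.97 and 0.96). Those closest to Ccne2 there were Pola1, Sepw1 and Rad50 (r = 0.94, 0.93 and 0.91). Between Cdk2 and Ccne2 themselves r was 0.89 in the rat libraries and -0.32 in the mouse. The rat values describe 12 libraries in 6 groups that share experiments and normalization, and none of these values carries a test.

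In the mouse cardiomyocytes, the libraries of the genotypes overlapped for all 8 genes. Comparing Vldlr f/f with Myh6-Cre;Vldlr f/f, 0% of 14922 genes passed the adjusted threshold, 3.04% had an unadjusted p under 0.05 (453 genes) and 8.52% did not overlap, in each case with none of the 8 genes. Comparing Vldlr f/f with Myh6-Cre;Vldlr f/+, the shares were 0%, 2.43% and 5.97%, and between the 2 Cre genotypes they were 0%, 0.925% and 2.49%, again with none of the 8. The first 2 of these comparisons share the Vldlr f/f libraries, and the last shares a Cre group with each. The counts at an unadjusted p under 0.05 were 362 and 138 genes in the latter pair of comparisons. Same-numbered libraries of the 2 Cre genotypes were taken as pairs because they deviated together in these data. The labels number the replicates without naming pairs, so agreement within pairs is no separate support. Within all 3 pairs Ccnd3, Ccne2 and Cdk6 were lower in Myh6-Cre;Vldlr f/f than in Myh6-Cre;Vldlr f/+. These are 3 of the 8 genes, and 18.3% of all genes tested were lower in all 3 pairs. With the pairs as a block and these genotypes alone, a fit chosen after seeing the data, the log2 differences were -0.39 for Ccnd3, -0.14 for Ccne2 and -0.74 for Cdk6. Their limma unadjusted p-values were 0.0756, 0.533 and 0.0858, and each had an adjusted p of 0.976.

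The mouse genes lie on GRCm38 (mm10) as annotated by GENCODE M21. Ccnd1 is at chr7:144929931-144939925 on the minus strand, Ccnd2 at chr6:127125162-127152193 (minus), Ccnd3 at chr17:47505051-47599691 (plus), Ccne1 at chr7:38097984-38107534 (minus) and Ccne2 at chr4:11191351-11204779 (plus). Cdk2 is at chr10:128697939-128705031 (minus), Cdk4 at chr10:127063534-127067920 (plus) and Cdk6 at chr5:3341485-3531008 (plus). Every gene but Ccne1 overlaps another gene on the opposite strand. The shared bases were 23.4% of exon bases for Ccnd1 (with LTO1), 19.7% for Cdk4 (Tspan31), 17.4% for Ccne2 (Ints8) and 4.11% for Ccnd3 (Bysl). The sources used here do not say whether counting used strand, so reads in those stretches could be from either gene.

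Ccnd1 was at 66.6, 88.4 and 104 CPM in Vldlr f/f, at 92.1, 83.1 and 77.4 in Myh6-Cre;Vldlr f/+ and at 113, 71.0 and 59.5 in Myh6-Cre;Vldlr f/f. The 3 genotypes overlapped, with means between 81.2 and 86.4. Ccnd2 was at 140.5, 76.1 and 203 CPM in Vldlr f/f, at 65.2, 134 and 58.1 in Myh6-Cre;Vldlr f/+ and at 102, 120.2 and 84.0 in Myh6-Cre;Vldlr f/f. The Myh6-Cre;Vldlr f/+ mean differed from that of Vldlr f/f by -0.69 on the log2 scale (SE 0.39, limma adjusted p = 0.999), and libraries of all 3 genotypes reached 120.2 CPM or more. Ccnd3 was at 54.3, 131 and 52.5 in Vldlr f/f, at 151, 57.6 and 47.0 in Myh6-Cre;Vldlr f/+ and at 96.1, 41.3 and 45.2 in Myh6-Cre;Vldlr f/f. One library of each genotype stood well above the other 2, and those 3 libraries also deviated together over all genes tested. The correlation of their deviations from their group means was 0.44 between Myh6-Cre;Vldlr f/f library 1 and Vldlr f/f library 2, 0.41 between Myh6-Cre;Vldlr f/+ library 1 and that library, and 0.46 between the 2 Cre libraries.

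Cdk4 was at 97.6, 134 and 119 CPM in Vldlr f/f, at 132, 118 and 101 in Myh6-Cre;Vldlr f/+ and at 162, 117 and 95.5 in Myh6-Cre;Vldlr f/f. Its mean was 117 ± 18.3, 117 ± 15.2 and 125 ± 33.9 (SD, n = 3 each), and Myh6-Cre;Vldlr f/f differed from Vldlr f/f by 0.07 on the log2 scale, with a 95% interval of -0.46 to 0.60. Cdk6 had the widest spread, at 11.4, 43.1 and 59.6 in Vldlr f/f, 43.3, 35.4 and 28.2 in Myh6-Cre;Vldlr f/+, and 43.1, 8.83 and 22.4 in Myh6-Cre;Vldlr f/f. Single libraries of both the Cre-free and the Myh6-Cre;Vldlr f/f genotype were low, and the interval of the difference between these genotypes ran from -1.95 to 0.81.

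Ccne1 was at 3.03, 3.74 and 4.38 CPM in Vldlr f/f, at 1.41, 6.70 and 2.60 in Myh6-Cre;Vldlr f/+, and at 6.91, 5.00 and 3.63 in Myh6-Cre;Vldlr f/f. The Myh6-Cre;Vldlr f/f mean was the highest (5.18 ± 1.65 against 3.72 ± 0.678 in Vldlr f/f; SD, n = 3 each), with overlapping libraries and a log2 difference of 0.37 (SE 0.40). Ccne2 ran from 2.09 to 5.28 CPM, with group means of 3.36, 3.65 and 3.25. Cdk2 was at 47.5, 40.4 and 36.0 in Vldlr f/f, 42.0, 30.5 and 38.9 in Myh6-Cre;Vldlr f/+ and 42.2, 23.7 and 25.4 in Myh6-Cre;Vldlr f/f. In Myh6-Cre;Vldlr f/f, 2 of the 3 libraries were the lowest of all 9, and the other one was the second highest (log2 difference from Vldlr f/f -0.47, SE 0.26, 95% interval -1.04 to 0.11, limma unadjusted p = 0.104, adjusted p = 0.997).

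**Figure D4:**
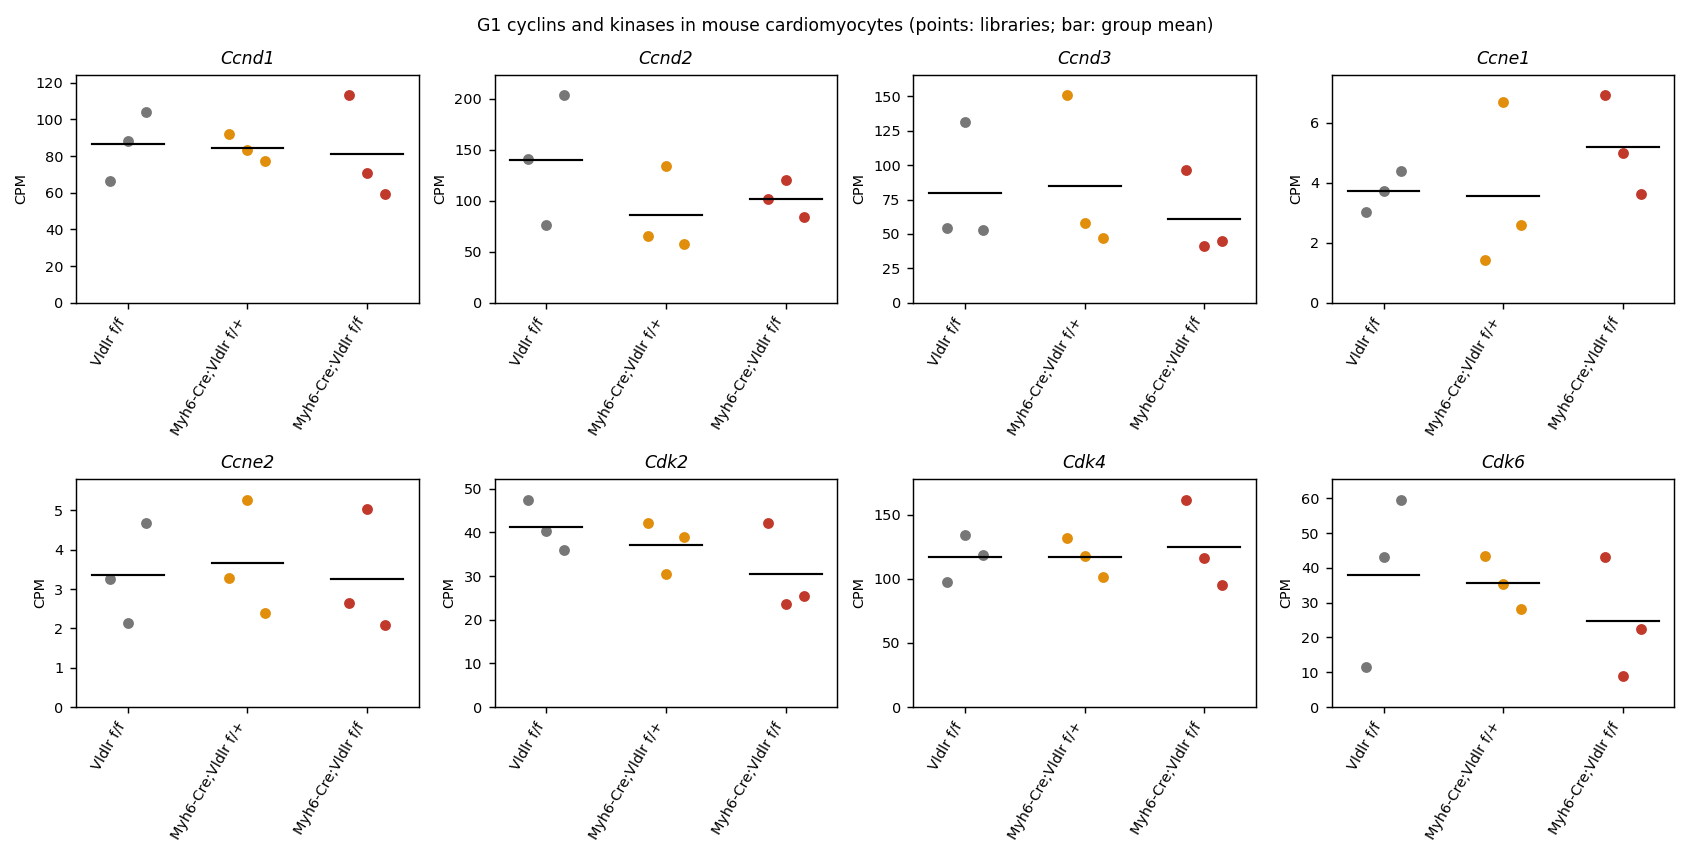
CPM of the 8 genes in the 9 mouse libraries; points are libraries and black bars are means of 3 per genotype. The genotypes overlap in every panel, and in the Ccnd3 panel 1 library of each genotype lies between 96.1 and 151 CPM while the other 6 lie between 41.3 and 57.6.

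Scaled to exon length in the mouse, Cdk4 was the most abundant of the 8, with a median of 36.3 CPM per kb of exon (29.4 to 49.8 in the 9 libraries). Ccnd1 followed at 17.6 (12.6 to 24.0), then Ccnd2 at 10.8 (6.17 to 21.6), Cdk2 at 6.25 (3.81 to 7.64), Ccnd3 at 6.19 (4.71 to 17.2), Cdk6 at 2.53 (0.631 to 4.26), Ccne1 at 1.40 (0.529 to 2.60) and Ccne2 at 0.932 (0.597 to 1.51). Cdk4 lay above every other member in all 9 libraries. The ranges of Ccnd1, Ccnd2 and Ccnd3 overlapped, as did those of Ccnd2, Ccnd3 and Cdk2, but within a library Ccnd1 was above Ccnd2 in 8 of 9 and above Ccnd3 in 9 of 9. Per kb, Ccnd1 made up 40.1% to 58.8% of the D-type cyclins, Ccnd2 15.9% to 43.5% and Ccnd3 12.0% to 39.4%. The length was that of all annotated exons joined, 4709 bases for Ccnd1, 9409 for Ccnd2 and 8775 for Ccnd3. The transcripts present may be shorter, so the order of the D-type cyclins and these shares depend on that length. In CPM without this scaling their medians were 83.1 for Ccnd1, 102 for Ccnd2 and 54.3 for Ccnd3. Per kb, the ratio of Cdk4 to Cdk6 ran from 8.56 to 56.9. It too depends on the joined exon lengths, 3249 bases for Cdk4 and 13989 for Cdk6.

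**Figure D5:**
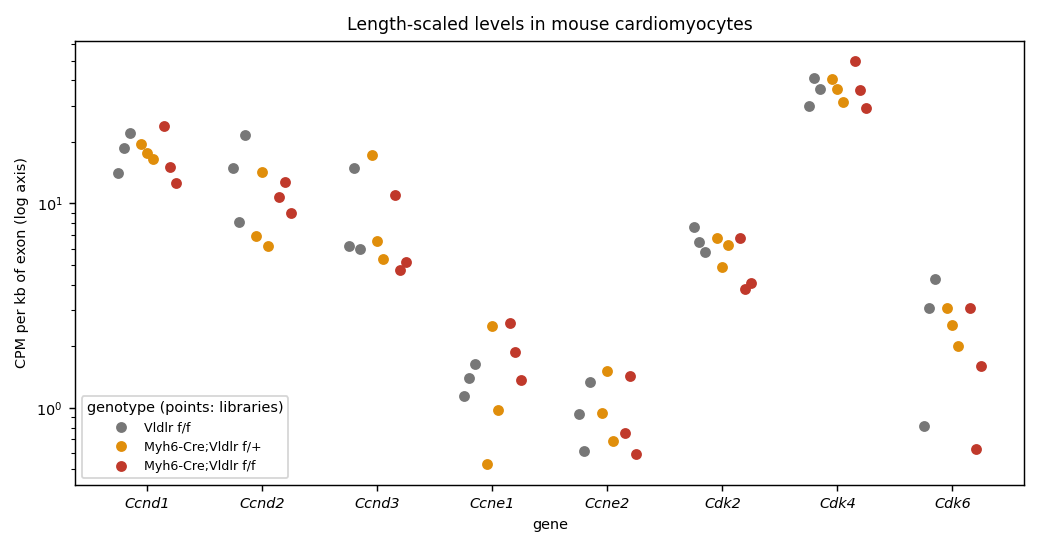
CPM per kb of exon (log axis) of the 8 genes in the 9 mouse libraries, coloured by genotype. Cdk4 lies highest, at 29.4 to 49.8, and the E-type cyclins lie between 0.529 and 2.60.

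Of the 8 S and M phase cyclins, Cdk1 and Cdc25 phosphatases, 7 had higher means in Myh6-Cre;Vldlr f/f than in Vldlr f/f, with a median log2 difference of 0.85 against -0.11 over all genes, and 33.9% of all genes were higher. None of the 8 passed after adjustment, and leaving out each library in turn gave medians from 0.51 (without Vldlr f/f library 1) and 0.54 (without Myh6-Cre;Vldlr f/f library 3) to 1.15. After median-of-ratios scaling, an alternative that shifts the median of all genes by 0.11, 50.1% were higher. Ccna2, cyclin A2, was at 43.8 ± 10.7 CPM against 19.5 ± 8.33 and Cdk1, the mitotic kinase, at 33.0 ± 5.81 against 18.4 ± 8.13 (SD, n = 3 each). Both were without overlap, as were 8.52% of all genes (limma unadjusted p = 0.0122 and 0.0385, adjusted p = 0.997 for each). Between Vldlr f/f and Myh6-Cre;Vldlr f/+ the median of that list was 0.56 with 6 of 8 higher. It was 0.17 without Myh6-Cre;Vldlr f/+ library 3, 0.20 without Vldlr f/f library 1 and at most 0.82, without Vldlr f/f library 2. The S phase genes differed less between Myh6-Cre;Vldlr f/f and Vldlr f/f, with a median of 0.13 and 16 of 19 higher. None of the 19 had an unadjusted p under 0.05 or groups without overlap. Without Myh6-Cre;Vldlr f/f library 1 the median was -0.08 with 8 of 19 higher, and without Myh6-Cre;Vldlr f/f library 3 it was 0.36 with 18 higher. Skp2 was at 2.04 ± 0.617 CPM in Myh6-Cre;Vldlr f/f and 4.77 ± 1.50 in Myh6-Cre;Vldlr f/+ (SD, n = 3 each), without overlap (adjusted p = 1), and Tfdp1, the E2F dimerization partner, was at 19.4 ± 2.89 in Myh6-Cre;Vldlr f/f against 28.5 ± 5.08 in Vldlr f/f (SD, n = 3 each).

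The labelled cell type was checked against its markers. In rat, 7 of 8 cardiomyocyte markers were found and summed to 12338 to 20497 CPM in the 12-library table, and fibroblast markers, 8 of 8, to 33715 to 46458. Smooth muscle and pericyte markers summed to 2654 to 6184 CPM, with 3575 to 3656 for si-Vldlr against 2654 to 3135 in its control, and its epicardial markers to 104 to 108 against 94.9 to 95.8. Cardiomyocyte markers were lower with si-Vldlr, at 14476 to 15179 CPM against 16034 to 20497 in the control, without overlap. Over all genes 48.5% did not overlap in that comparison. With Reelin 4 marker sums lay apart from PBS, while the fibroblast and endothelial sums overlapped. Over all genes 32.8% did not overlap there. The cardiomyocyte sums were 15591 to 16778 against 14565 to 15391, and macrophage sums 241 to 257 against 211 to 221. Smooth muscle and pericyte sums were 5053 to 5098 against 4796 to 5015, and epicardial sums 119 to 122 against 129 to 135. Of the cardiomyocyte genes only Myh7 lay apart, at 8657 to 9427 against 7706 to 8461 CPM. Tnnt2, Actn2, Myh6, Tnni3, Ryr2 and Pln overlapped. For Vldlr OE the cardiomyocyte sums, 12338 to 15306, overlapped those of Control, 15197 to 15228. In mouse, the 8 cardiomyocyte markers summed to 33296 to 44319 CPM, fibroblast markers to 2972 to 5624 and erythroid markers to 1493 to 3383, with overlapping genotypes. In the rat tables the single erythroid marker found, Alas2, was at or near 0. The share of these cells in the values of the 8 genes was not tested.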

How the data were processed

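TRIzol was used for RNA extraction and standard Illumina protocols for the libraries, per the labels' protocols. The submitters' processing notes list the builds rn6 and mm10 and the tools StringTie 1.3.4, HISAT2 2.1.0 and edgeR 3.20.9, without their roles. The authors deposited CPM, and every column sums to 1000000. Values are multiples of a step whose size in reads is not known (66088372 to 97773385 steps a library), so no count test, counting interval or floor is given. In every file, 4 rows with repeated, date-like names were left out.

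Differences were fitted with limma 3.58.1 (R 4.3.3) with a trend on log2(CPM + 1), for genes with at least 1 CPM in 2 rat or 3 mouse libraries, all groups of a table together, with Benjamini-Hochberg adjustment over all genes and calls at 0.05. The fit was tested on simulated data. Tables were scaled separately, so tests stay within a table. The alternatives were a pseudocount of 0.1, no filter, the compared groups alone, median-of-ratios scaling, a replicate block and leaving out each library; the block with the 2 Cre genotypes alone was chosen after seeing the data. The members and lists were chosen with earlier results of these data known. Named genes are the 8 members, Vldlr and Thbs1, up to 2 genes of smallest p per list and comparison, and the 3 genes most correlated with each member, of which the text gives some.

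Same-numbered libraries of the 2 Cre genotypes deviated together (correlations of 0.46, 0.44 and 0.33), so their numbers were taken as pairs. With the replicate block and these genotypes alone, 0 genes were called, as without it.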

Additional observations from a re-analysis of the deposited data

How the results depend on the processing

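None of the 544 values that the 8 genes took under the alternatives had an adjusted p under 0.05 (limma), and the smallest was 0.128, for Ccne2 with si-Thbs1 under the replicate block. In 498 the direction was that reported, and 29 of the 56 differences kept their sign under each alternative. The number of genes called over the whole table was less steady. With the compared groups alone it was 8 for si-Vldlr (4 as reported), 13 for Reelin (2), 8 for Vldlr OE (1) and 1 between Vldlr f/f and Myh6-Cre;Vldlr f/f (0). Without the filter it was 4 for Vldlr OE and 0 for si-Thbs1 (6), where the unadjusted p of 1014 genes was under 0.05. The replicate block gave 43 for si-Thbs1, whose same-numbered libraries had a correlation of 0.41, and 3 for Reelin. The numbers of the rat libraries and of Vldlr f/f were not taken as pairs. For si-Thbs1 this differs from the choice for the Cre genotypes, whose correlations ran from 0.33 to 0.46. Under the replicate block the smallest adjusted p-values with si-Thbs1 (limma) were those of Ccne2, Ccne1 and Ccnd1, at 0.128, 0.162 and 0.165. Their unadjusted p-values were 0.0051, 0.0088 and 0.0093. No paired analysis was possible for Vldlr OE because the Control columns carry no replicate number of the labels. Leaving out 1 library gave 4 to 167 calls for si-Vldlr (167 without si-Control_v library 1, 7 without si-Vldlr library 1), 5 to 10 for Reelin (each of its 4 libraries), 2 to 257 for Vldlr OE (257 and 2 without OE libraries 2 and 1, 80 and 4 without the Control libraries in columns 1 and 2), 14 to 185 for si-Thbs1 (185 and 36 without si-Control_t libraries 1 and 2, 22 and 14 without si-Thbs1 libraries 1 and 2), and 0 to 1 for both Cre genotypes against Vldlr f/f (1 without Vldlr f/f library 1 or Myh6-Cre;Vldlr f/+ library 3). Members whose groups did not overlap numbered 5 to 6 for si-Vldlr (64.6% to 83.7% of all genes), 4 to 6 for Reelin (61.6% to 73.5%), 3 to 8 for Vldlr OE (50.2% to 77.6%), 6 to 7 for si-Thbs1 (58.8% to 69.4%), 0 to 2 for Myh6-Cre;Vldlr f/f (14.0% to 26.1%) and for Myh6-Cre;Vldlr f/+ (10.7% to 24.5%) against Vldlr f/f, and 0 to 4 between the Cre genotypes (5.29% to 18.4%), since fewer libraries overlap more rarely. A group left with 1 library is assumed to vary like the others. The cause of the other shifts was not tested.

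Leaving out 1 library changed the sign of 27 differences, each at most 0.39 in size, with these ranges on the log2 scale. With si-Vldlr they were Ccne1 -0.016 to 0.36. With Reelin they were Ccnd3 -0.00035 to 0.083, Ccne2 -0.0084 to 0.049, Ccnd1 -0.14 to 0.085, Ccne1 -0.37 to 0.0081 and Cdk4 -0.12 to 0.041. With Vldlr OE they were Cdk4 -0.13 to 0.17, Ccne2 -0.60 to 0.058, Ccnd2 -0.30 to 0.18, Ccnd3 -0.048 to 0.14 and Cdk6 -0.30 to 0.22. With si-Thbs1 they were Ccnd2 -0.10 to 0.25 and Cdk4 -0.095 to 0.30. Between Vldlr f/f and Myh6-Cre;Vldlr f/f they were Ccne2 -0.34 to 0.16, Cdk4 -0.13 to 0.25, Ccnd1 -0.38 to 0.077 and Ccnd3 -0.73 to 0.079. Between Vldlr f/f and Myh6-Cre;Vldlr f/+ they were Ccnd3 -0.46 to 0.47, Ccne1 -0.67 to 0.17, Cdk4 -0.11 to 0.11, Ccne2 -0.15 to 0.30, Ccnd1 -0.19 to 0.13 and Cdk6 -0.52 to 0.63. Between the 2 Cre genotypes they were Ccnd3 -0.77 to 0.12, Ccne2 -0.43 to 0.095, Cdk4 -0.14 to 0.24 and Ccnd1 -0.36 to 0.093. Under median-of-ratios scaling Ccnd1 and Ccne2 changed sign between Vldlr f/f and Myh6-Cre;Vldlr f/f (0.0087 and 0.050), and so did Ccnd1 between Vldlr f/f and Myh6-Cre;Vldlr f/+ (0.044). That scaling moved the share of all genes that were higher between the Cre genotypes from 39.8% to 50.1%.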
